A study of Mus musculus with 22 samples.

Results

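The amino acid transporter families were examined in whole brains of DBA/2J (D2) and C57BL/6J (B6) mice. The members were the genes whose single symbol on the array platform begins with Slc1a, Slc3a, Slc7a, Slc36a or Slc38a. This prefix rule took in 40 of 22251 symbols, and 37 of the 40 could be measured. RNA of naive adult males was hybridised to the Affymetrix Mouse Exon 1.0 ST array, with 1 brain per array, for 12 D2 and 10 B6 mice. Both strains are inbred, no animal was treated, and strain is the only labelled difference between the groups. With 1 array per mouse, the spread behind each p-value joins that between mice with that of preparing and hybridising each sample. The series title names alternative splicing between the strains as its subject.

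Neurons and glia depend on membrane carriers to take up, exchange and release amino acids. Glutamate released at synapses is cleared by the Slc1a carriers of astrocytes and neurons, and returns to neurons as glutamine through the Slc38a carriers. The Slc7a light chains reach the cell surface only when joined to a heavy chain of the Slc3a family, Slc3a2 in brain, and exchange one amino acid for another across the blood-brain barrier and glial membranes. The cationic Slc7a carriers bring arginine, lysine and ornithine into cells without a heavy chain. Slc36a carriers such as Slc36a1 and Slc36a2 move small neutral amino acids together with protons. Several of these genes, among them Slc3a2, Slc7a5 and Slc7a11, are textbook targets of the transcription factor ATF4, which cells use when amino acids run short.

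The array carries many probesets per gene, each a small group of probes within 1 exon or part of one, and its deposited values are on a log2 scale. Only probesets whose mean level over all 22 arrays reached the median of such means, 1.44 on the log2 scale, were kept. A gene's value on an array was the median of its kept probesets, and a gene was measured where it had at least 3 of them. A gene was called different where the D2 minus B6 difference had an adjusted p under 0.05 (limma, Benjamini-Hochberg over all 16016 genes tested). Of the 802 probesets of the members, 669 (83.4%) were kept. Just outside the filter lay probesets 5244197 of Slc38a1 (mean 1.42) and 4527708 of Slc7a15 (1.41), and just inside it 4905930 of Slc7a3 (1.47) and 5277319 of Slc36a2 (1.51). Slc7a12 had 0 kept probesets, Slc7a13 had 1 and Slc7a15 had 2, so these 3 light chain genes were not measured. Slc7a6os entered by its prefix only: it is the neighbour of Slc7a6 on the opposite strand and encodes no transporter.

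Arrays of a strain resembled each other closely, with a median correlation to the other arrays of the strain across probesets of 0.932 to 0.952 for the D2 arrays and 0.941 to 0.953 for the B6 arrays. Probesets, over which these correlations run, are no independent replicates. The median level of an array, taken over all its probesets, lay between 1.45 and 1.51 in D2 and between 1.41 and 1.47 in B6, so this measure of the array as a whole differed with strain. The labels mark each array's file with a letter, A or B, whose meaning they do not give, and 10 D2 and 8 B6 arrays had letter A.

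Among the amino acid transporters, 4 genes fell in D2 brains and none rose. They were the sodium-coupled carrier gene Slc38a11, the cationic carrier genes Slc7a3 and Slc7a2, and Slc3a2, the heavy chain that the light chains need. The decreases ran from 0.33 to 0.64 on the log2 scale, so that D2 levels were between 0.794 and 0.640 of the B6 levels. The glutamate carriers, the light chains and the Slc36a carriers gave no call at gene level. At an unadjusted p under 0.05, 8 members were lower and 2 higher in D2. The count of 4 of 37 (10.8%) was close to the background, since 10.8% of all 16016 genes tested were called, 8.26% lower and 2.57% higher in D2. The median difference of the members was -0.08, against -0.05 for all genes tested, and 24 of the 37 (64.9%) lay below 0, against 61.9% of all genes. The number of calls is therefore not a result about these families, and the accounts that follow concern single genes. No measured member separated the strains without overlap (0 of 37), which 1.18% of all genes did.

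**Figure D1:**
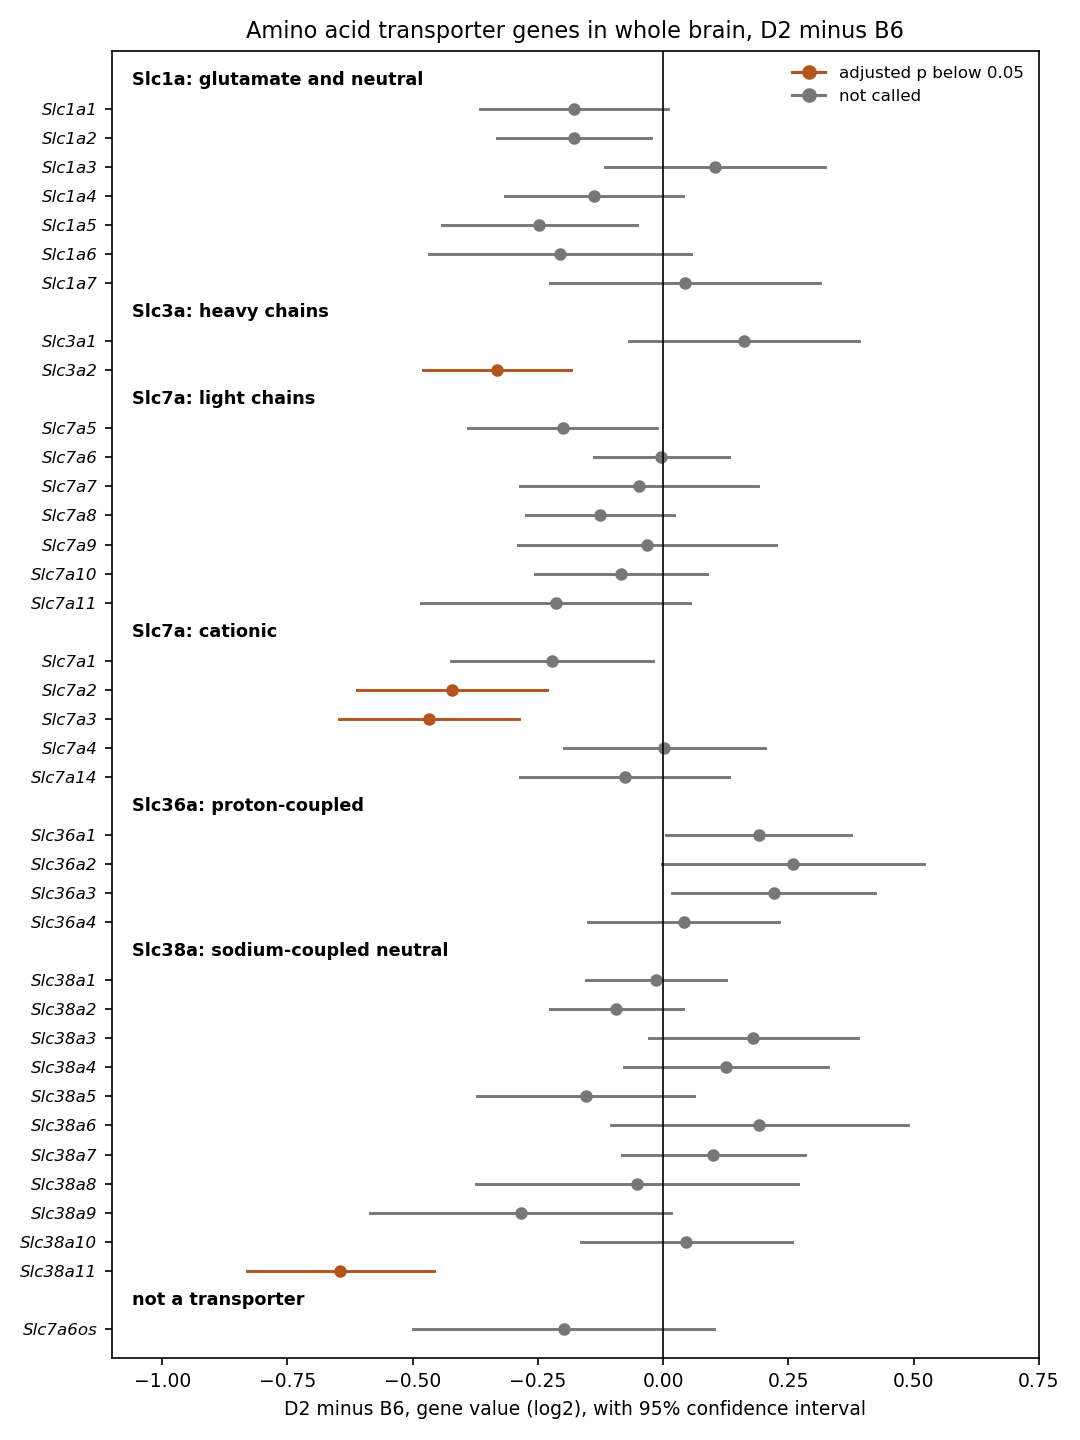
Difference in gene value, D2 minus B6 (horizontal axis, log2), of the 37 measured members, grouped by family; points are differences and lines 95% confidence intervals from limma. The 4 called genes, drawn in orange, lie between -0.64 and -0.33, and the 33 others between -0.28 and 0.26.

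The members varied a little less between arrays of a strain than genes in general. The median standard deviation of a member's value over arrays was 0.22 in D2 and 0.21 in B6, against 0.25 in D2 and 0.24 in B6 over all genes tested. The comparison was not matched for level or number of probesets, and the members lay at higher levels. The median over the 37 members on an array lay between 5.02 and 5.60 in D2 (middle 5.29) and between 5.33 and 5.74 in B6 (middle 5.45). The median over all genes tested on an array was also lower in D2, with a middle of 4.58 against 4.69 in B6 and overlapping ranges. A lower median was thus not particular to the members, although the median over all probesets was higher in D2. Standard errors of the differences ran from 0.064 to 0.16. Whole-brain RNA was measured, so fewer cells of a type and less RNA per cell cannot be told apart in any of the differences.

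RefSeq promoter windows (GRCm38.p6, 250 bases before to 50 after the annotated start) are shown for some of the members on which the results turn. Slc38a11 had the largest gene-level difference, Slc3a2 is the shared heavy chain, and Slc7a11 had the largest difference of a single probeset. Capitals mark the letters TGATGNAA, the core of the amino acid response element that ATF4 binds together with C/EBP factors, searched on both strands, where N is any base. The windows are chr2:65363977-65364276, chr19:8713848-8714147 and chr3:50443564-50443863, all on the minus strand, printed 5′ to 3′ along the gene.
Slc38a11: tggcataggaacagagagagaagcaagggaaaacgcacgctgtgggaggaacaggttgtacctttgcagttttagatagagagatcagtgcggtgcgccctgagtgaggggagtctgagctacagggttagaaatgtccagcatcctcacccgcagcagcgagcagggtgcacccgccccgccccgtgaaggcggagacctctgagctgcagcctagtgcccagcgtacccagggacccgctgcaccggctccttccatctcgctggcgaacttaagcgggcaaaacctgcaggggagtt
Slc3a2: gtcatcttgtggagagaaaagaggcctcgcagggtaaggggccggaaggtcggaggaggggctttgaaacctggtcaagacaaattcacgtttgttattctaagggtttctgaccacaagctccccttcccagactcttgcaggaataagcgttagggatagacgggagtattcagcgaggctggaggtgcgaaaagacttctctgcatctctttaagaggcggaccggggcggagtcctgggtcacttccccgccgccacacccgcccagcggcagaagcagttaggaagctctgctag
Slc7a11: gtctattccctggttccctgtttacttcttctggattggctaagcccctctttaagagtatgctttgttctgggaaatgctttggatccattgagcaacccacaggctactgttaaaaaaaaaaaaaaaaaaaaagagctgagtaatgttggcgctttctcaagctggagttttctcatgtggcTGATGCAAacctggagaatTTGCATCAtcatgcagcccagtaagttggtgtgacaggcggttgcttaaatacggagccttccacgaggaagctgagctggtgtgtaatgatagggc
The window of Slc7a11 held the letters on both of its strands, once beginning 66 and once 47 bases before the start. Neither of the other windows held them. No window was found for Slc7a2, Slc7a3 or Slc7a5, so the letters were not searched there. A share of 3.97% of all 32851 mouse windows held at least 1 match, and among the 39 windows of 29 members 4 did, those of Slc7a11, Slc1a4 and 2 of the starts of Slc7a7. The 2 Slc7a7 windows overlap and share 1 of the matches, which begins 243 bases before one start and 1 base before the other. A match is a description of the letters and not a bound site, and the absence of a match says only that the letters are not in this window.

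Slc38a11, a sodium-coupled carrier gene that is little studied in brain, had the largest difference of any member. Its gene value was lowest at 2.65, had a median of 3.02 and was highest at 3.32 in D2 brains, against 3.23, 3.71 and 3.90 in B6 brains. In 10 of the 12 D2 brains it lay below the lowest B6 brain, and in all 12 below the B6 median. The difference was -0.64 ± 0.091 (SE; 3.01 ± 0.19 in D2, SD, n = 12, and 3.66 ± 0.22 in B6, SD, n = 10; limma adjusted p = 1.41e-05), a D2 level of 0.640 of that in B6. All 8 kept probesets of its 11 lay lower in D2, by 0.15 to 1.20, and 3 of them were called on their own level. Probeset 5589903 had the largest of these, at 1.32, 2.50 and 3.25 (lowest, median and highest) in D2 and 2.57, 3.66 and 4.05 in B6. With the array median as covariate the gene lost its call, at -0.41 (adjusted p = 0.0550).

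The other Slc38a genes, carriers of glutamine and other neutral amino acids, gave no gene-level call, with 5 below 0 and 5 above. Slc38a1 and Slc38a2, which take up glutamine into neurons and other cells, differed by -0.01 ± 0.068 (SE) and -0.09 ± 0.064. Slc38a3, the astrocyte carrier that releases glutamine, differed by 0.18 ± 0.10 (adjusted p = 0.274), and 6 of 12 D2 brains lay above the highest B6 brain. It was called higher with arrays centred on their median gene value, as was the lysosomal carrier gene Slc36a1, and on the letter A arrays alone. Slc38a3 was at -0.30 on the letter B arrays alone. Slc38a5, which moves the same substrates as Slc38a3, differed by -0.15 ± 0.11. Slc38a9, which senses arginine at the lysosome and signals to mTORC1, had the lowest value of the uncalled members at -0.28 ± 0.15 (adjusted p = 0.225). Of the 31 kept Slc38a9 probesets 2 were called lower, 4968193 by 0.59 and 5234908 by 0.43, but the gene stood at 0.20 with the array median as covariate. The gene was called lower without a filter, at -0.38 (adjusted p = 0.0033), and with the mean over probesets, at -0.20 (adjusted p = 0.0161). Slc38a4, Slc38a6, Slc38a7, Slc38a8 and Slc38a10 lay between -0.05 and 0.19.

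Of the 5 cationic Slc7a genes 2 fell, 2 others lay below 0 without a call and 1 was near 0. Slc7a3, a neuronal carrier of arginine and lysine, had gene values of 3.88, 4.50 and 4.74 (lowest, median and highest) in D2 brains, against 4.62, 4.88 and 5.17 in B6 brains. A single D2 brain reached into the B6 range, and the other 11 lay below the lowest B6 brain. The difference was -0.47 ± 0.088 (SE; 4.45 ± 0.21 in D2, SD, n = 12, and 4.92 ± 0.17 in B6, SD, n = 10; limma adjusted p = 0.000594). The decrease ran along the gene: 15 of 16 kept probesets lay below 0, 5 were called lower on their own level by 0.36 to 0.80, and none had a called exon usage difference. It was the only member that kept its call with the array median as covariate, at -0.46 (adjusted p = 0.0486).

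Slc7a2, the carrier that supplies arginine for nitric oxide synthesis in many cells, had gene values of 4.42, 4.91 and 5.18 in D2 brains, against 5.01, 5.36 and 5.60 in B6 brains. In 9 of 12 D2 brains it lay below the lowest B6 brain. The difference was -0.42 ± 0.092 (SE; 4.89 ± 0.22 in D2, SD, n = 12, and 5.31 ± 0.20 in B6, SD, n = 10; limma adjusted p = 0.00302). The decrease was uneven along the gene. Of 19 kept probesets 14 lay below 0 and 2 were called lower. Their differences ran from -1.25 to 0.29 with a median of -0.17. With the mean over probesets the gene differed by -0.22 and was still called. The call was lost with the filter at the 75th percentile of probeset means (-0.23, adjusted p = 0.105) and with the array median as covariate (-0.12, adjusted p = 0.681). Slc7a1, the cationic carrier found in most cells, differed by -0.22 ± 0.098 (adjusted p = 0.153). Slc7a4, a family member for which arginine transport has not been shown, differed by 0.0026 ± 0.097. Slc7a14, which had the highest probeset level of this group, ran from 6.30 over a median of 6.70 to 6.96 in D2 and from 6.03 over 6.82 to 7.03 in B6, with a difference of -0.08 ± 0.10 (adjusted p = 0.676). The strains overlapped throughout for these 3 genes.

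Slc3a2 fell in D2 brains. Its gene values were 7.40, 7.61 and 7.83 (lowest, median and highest) in D2, against 7.81, 7.94 and 8.29 in B6. In 11 of 12 D2 brains it lay below the lowest B6 brain. The difference was -0.33 ± 0.072 (SE; 7.64 ± 0.14 in D2, SD, n = 12, and 7.97 ± 0.14 in B6, SD, n = 10; limma adjusted p = 0.00271), a D2 level of 0.794 of that in B6. Slc3a1, the heavy chain of the kidney and gut cystine carrier, differed by 0.16 ± 0.11 over 7 kept probesets (adjusted p = 0.386). The decrease of Slc3a2 was uneven along the gene. A pair of probesets separated the strains without overlap: 5046369 at 6.28, 6.81 and 7.01 in D2 against 7.71, 7.85 and 8.38 in B6, and 5109328 at 8.46, 8.64 and 8.90 in D2 against 9.00, 9.10 and 9.22 in B6. Probeset 4511695 was also called lower, by 0.33, and the other 9 kept probesets were not called. Without the probesets that had a called exon usage difference, 5046369 in this gene, the gene value differed by -0.22 and was no longer called (adjusted p = 0.0751), and with the array median as covariate by -0.30 (adjusted p = 0.138).

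**Figure D2:**
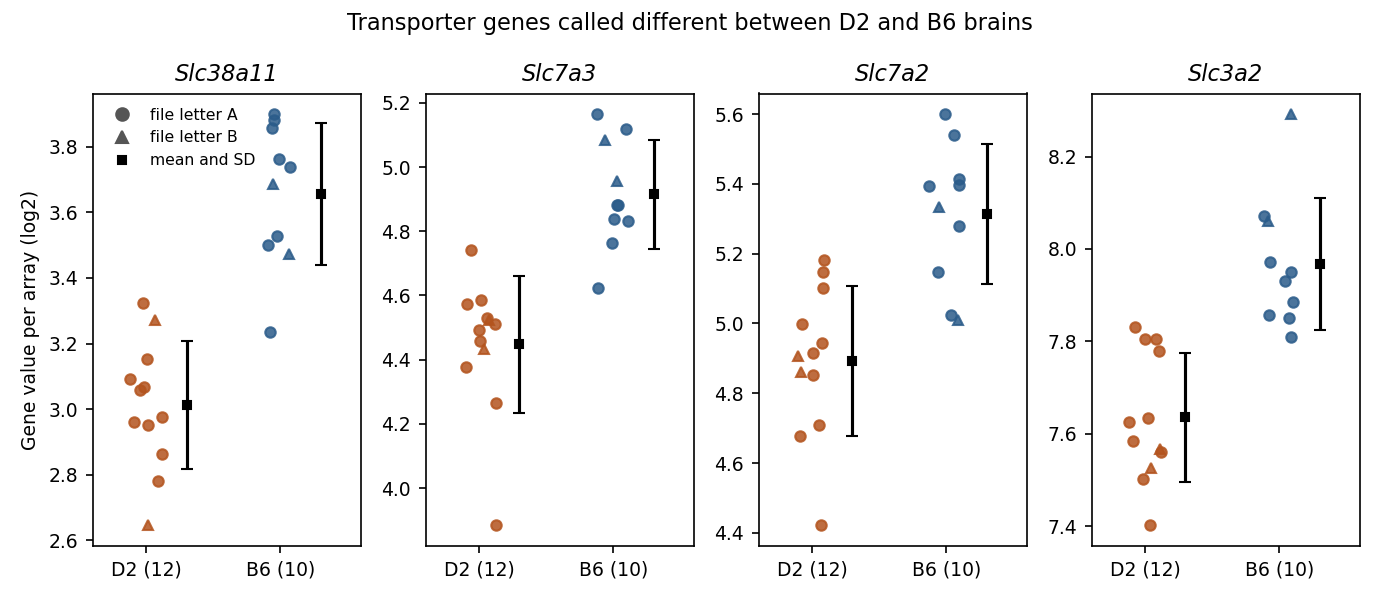
Gene value on each array (vertical axis, log2) of the 4 called members, D2 (12 arrays, left) and B6 (10 arrays, right) in each panel; circles and triangles mark file letters A and B, squares with bars the mean and standard deviation. Nearly all D2 arrays lie below the lowest B6 array, 10 of 12 for Slc38a11, 11 for Slc7a3, 9 for Slc7a2 and 11 for Slc3a2.

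None of the 7 measured light chain genes was called, and 1 was lower at an unadjusted p under 0.05. All of their differences lay below 0, from -0.21 to -0.0032 with a median of -0.08; with arrays centred on their median gene value 3 of the 7 lay below 0, and with the array median as covariate 5 did. Slc7a5, which carries large neutral amino acids across the blood-brain barrier, differed by -0.20 ± 0.091 (adjusted p = 0.167), and 11 of 12 D2 brains lay below the B6 median. Slc7a8, a light chain with similar substrates, differed by -0.13 ± 0.072, and its probeset 4572024 was lower by 0.60 (6.63, 6.86 and 7.22 in D2, against 7.07, 7.56 and 7.78 in B6; adjusted p = 0.00114). Slc7a10, which carries glycine and D-serine, differed by -0.08 ± 0.084. Slc7a6, which exchanges cationic for neutral amino acids and had the highest probeset level of the light chains, ran from 5.60 over 5.74 to 5.93 in D2 and from 5.49 over 5.75 to 5.95 in B6, with a difference of -0.0032 ± 0.065. Slc7a7 and Slc7a9, the light chains of gut and kidney, differed by -0.05 and -0.03 over 7 and 5 kept probesets.

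Slc7a11, the light chain that imports cystine in exchange for glutamate, had gene values of 4.41, 4.99 and 5.58 in D2 brains and 4.52, 5.24 and 5.67 in B6 brains. The strains overlapped and the gene was not called, at -0.21 ± 0.13 (adjusted p = 0.315). Its probesets held both the lowest and the highest level difference of any kept member probeset. Probeset 5420057 lay at 0.51, 1.25 and 2.18 (lowest, median and highest) in D2, against 3.80, 4.55 and 5.15 in B6, and the strains did not overlap. The level difference was -3.23 ± 0.22 (SE; 1.28 ± 0.56 in D2, SD, n = 12, and 4.52 ± 0.49 in B6, SD, n = 10; limma adjusted p = 4.21e-11 over all kept probesets). The D2 mean lay below the filter level of 1.44, so the size of this difference is limited by the background. Probeset 4316609 went the other way, at 5.32, 6.53 and 6.88 in D2 against 4.16, 4.82 and 5.86 in B6, a difference of 1.39 ± 0.23. In 9 of 12 D2 brains it lay above the highest B6 brain.

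Exon usage was measured as the splicing index, the log2 level of a probeset less the value of its gene on that array. A difference was called at an adjusted p under 0.05 (limma, over all 236114 probesets of tested genes) and a size of at least 0.5. Among the members, 10 of 666 probesets (1.50%) were called, 7 lower and 3 higher in D2, in 5 of 37 genes (13.5%). The background was 1.66% of all probesets tested, 0.77% lower and 0.894% higher, and 13.9% of all genes, so these shares too were near those of genes in general. The probes follow B6 sequence, and where D2 differs from it within a probe, the D2 signal is lower although the transcript may be as abundant. Whether such variants lie under these probesets was not tested, since variant data were not used here.

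Slc7a11 had 4 of the 10 called probesets. The index of 5420057 was lower in D2 by 3.02 (SE 0.22, adjusted p = 1.66e-09), with every D2 brain below every B6 brain. That of 4316609 was higher by 1.60 (SE 0.18, adjusted p = 2.74e-06), and 11 of 12 D2 brains lay above the highest B6 brain. The index of 4738527 was higher by 0.90 (adjusted p = 0.0204), with levels of 3.46, 3.80 and 4.24 in D2 and 1.96, 3.20 and 3.92 in B6. The index of 4499245 was lower by 0.59 (adjusted p = 0.0238), with levels of 3.60, 4.48 and 5.58 in D2 and 4.78, 5.40 and 6.10 in B6. The calls of 4738527 and 4499245 were each lost under 4 of 9 alternatives. Differences of both signs occurred within 1 gene whose summary value was not called. Slc7a11 probesets 4407808 (-0.95) and 4973293 (-0.33) were called lower on their own level but not on the index.

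In Slc3a2 the index of probeset 5046369 was lower by 0.85 (SE 0.084, adjusted p = 3.9e-07). The index lay between -1.25 and -0.56 in D2 and between -0.26 and 0.09 in B6, so the strains did not overlap. The level of this probeset differed by -1.18, against -0.33 for the gene. In Slc7a2 the index of 4500813 was lower by 0.83 (SE 0.15, adjusted p = 0.00173). Its level lay at 3.52, 4.24 and 4.66 in D2 against 4.83, 5.54 and 5.78 in B6, without overlap, a difference of -1.25. The index of 5179980 in Slc7a2 was higher by 0.52 (adjusted p = 0.00585), but its own level, at 5.07, 5.45 and 5.84 in D2 and 4.86, 5.34 and 5.77 in B6, was not called (0.10 ± 0.13), and the index call was lost under 5 of 9 alternatives.

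**Figure D3:**
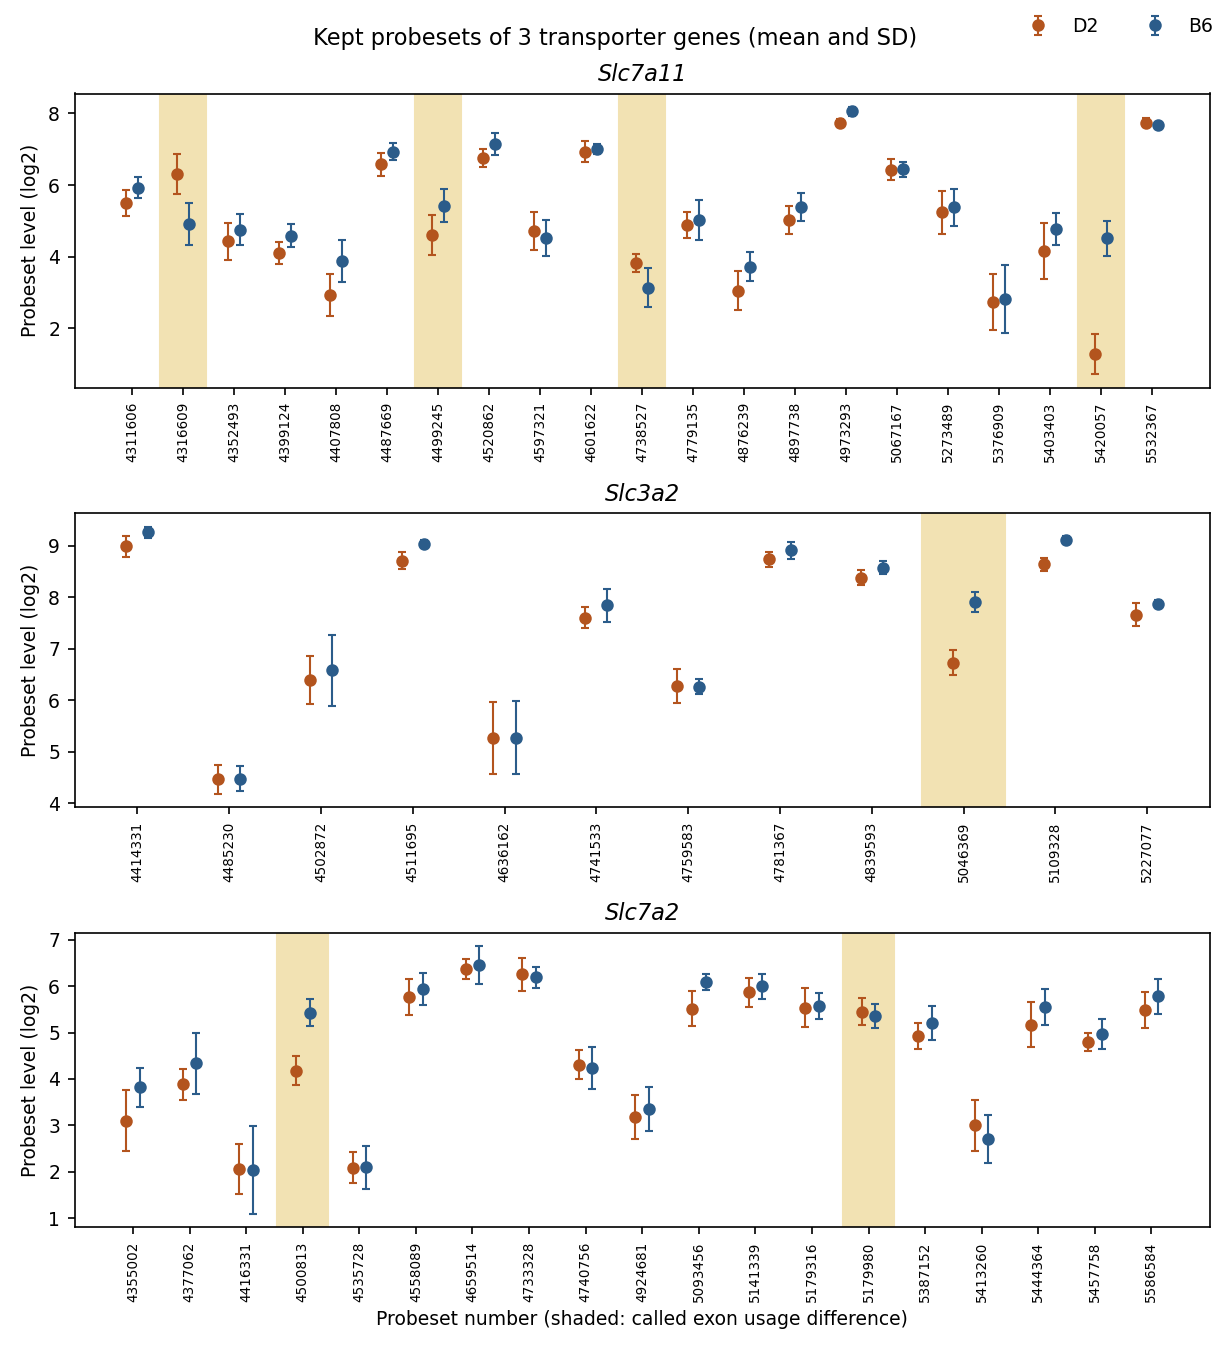
Level of each kept probeset (vertical axis, log2; mean and standard deviation over 12 D2 and 10 B6 arrays) of Slc7a11, Slc3a2 and Slc7a2, ordered by probeset number, with called exon usage differences shaded. Most pairs lie close together, while probeset 5420057 of Slc7a11 stands at 1.28 in D2 and 4.52 in B6, and 4316609 of the same gene at 6.30 in D2 and 4.91 in B6.

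Slc38a1 and Slc38a6 held the other 3 called exon usage differences. In Slc38a1, whose gene values ran from 7.86 over 8.10 to 8.22 in D2 and from 7.91 over 8.07 to 8.28 in B6, the index of probeset 4514720 was lower by 1.02 (SE 0.24, adjusted p = 0.0198). Its level was 0.72, 1.85 and 2.89 in D2 and 1.99, 3.04 and 3.76 in B6, and 8 D2 brains lay below the lowest B6 brain. In Slc38a6, whose gene values ran from 6.16 over 6.62 to 7.49 in D2 and from 6.08 over 6.34 to 6.99 in B6, the index was lower by 0.62 at 4547858 and by 0.63 at 4786269. The levels of 4547858 were 8.02, 8.43 and 8.80 in D2 and 8.66, 8.84 and 9.25 in B6. Those of 4786269 were 7.63, 8.46 and 8.82 in D2 and 8.65, 8.78 and 9.00 in B6, a level difference that was not called (adjusted p = 0.0642). Slc38a6 is listed with 112 probesets, of which 34 had means between 10.31 and 10.64, a narrow band above the next lower mean of 9.92. Such a band can come from sequence shared with near-identical copies, which was not tested, so the Slc38a6 gene value and its index are uncertain.

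On their own level, 31 of the 669 kept member probesets (4.63%) were called, 27 lower and 4 higher in D2, in 15 genes, 11 of which had no gene-level call. The background was 3.91% of all 595203 kept probesets and, among those with 1 gene symbol, 4.06%, 2.79% lower and 1.27% higher. In Slc1a2, the main astrocyte glutamate carrier, probeset 5009405 separated the strains without overlap, at 7.97, 8.32 and 8.55 in D2 against 8.62, 8.92 and 9.04 in B6 (difference -0.60 ± 0.091, adjusted p = 9.99e-05), and 4591717 was lower by 0.48. The 4 higher probesets were 2 of Slc7a11, 4340067 of Slc36a1 (0.53) and 5080955 of Slc36a4 (0.41). Single lower probesets were also called in Slc1a6, Slc38a5 and Slc38a10, by 0.50, 0.51 and 0.87.

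The Slc1a genes gave no gene-level call (2 were lower at an unadjusted p under 0.05), with 5 of 7 below 0 and a median of -0.18. The gene value of Slc1a2 ran from 8.64 over a median of 8.84 to 9.17 in D2 and from 8.88 over 9.05 to 9.30 in B6. In 7 of 12 D2 brains it lay below the lowest B6 brain. The difference was -0.18 ± 0.075 (adjusted p = 0.133), and all 16 kept probesets lay below 0. When probesets of an older symbol of the gene, 2900019G14Rik, were joined to it, the difference was -0.07. Slc1a3, the other astrocyte glutamate carrier, differed by 0.10 ± 0.11 (adjusted p = 0.577). Slc1a1, the neuronal carrier of glutamate and cysteine, differed by -0.18 ± 0.091, and Slc1a6, the carrier of cerebellar Purkinje cells, by -0.21 ± 0.13. The neutral exchangers Slc1a4 and Slc1a5 differed by -0.14 ± 0.087 and -0.25 ± 0.095 (adjusted p = 0.329 and 0.0966), and the retinal carrier Slc1a7 by 0.04 ± 0.13.

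All 4 Slc36a genes lay above 0 and none was called (2 were higher at an unadjusted p under 0.05), with differences from 0.04 to 0.26 and a median of 0.21. Slc36a4 was at -0.02 with the mean over probesets in place of the median and at -0.05 on the letter B arrays alone; with arrays centred or the array median as covariate all 4 stayed above 0. Slc36a2 was at 0.032 and Slc36a3 at 0.03 with the covariate, and they were at 0.046 and 0.027 without a filter. Slc36a1, which exports amino acids from lysosomes, ran from 5.47 over 5.82 to 6.11 in D2 and from 5.26 over 5.58 to 5.91 in B6, and 4 D2 brains lay above the highest B6 brain. The difference was 0.19 ± 0.090 (adjusted p = 0.182). Its probeset 4340067 was at 5.12, 5.82 and 6.11 in D2 against 4.55, 5.25 and 5.51 in B6, with 10 of 12 D2 brains above the highest B6 brain. Slc36a2 and Slc36a3 differed by 0.26 ± 0.13 and 0.22 ± 0.098, and Slc36a4, a carrier of proline and tryptophan, by 0.04 ± 0.093. The levels of Slc36a2 and Slc36a3 were low, with medians of 2.65 and 2.33 in D2 and 2.31 and 2.11 in B6. Their lowest kept probesets had means of 1.51 and 1.58, near the filter level of 1.44. The neighbour gene Slc7a6os differed by -0.20 ± 0.15 (adjusted p = 0.417).

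Genes that work with the transporters were read from 6 lists that contain no member. Of 18 genes of the amino acid response driven by ATF4, 4 fell, none rose and 16 lay below 0, with a median of -0.21. Of all genes 8.26% were called lower and 61.9% lay below 0, with a median of -0.05. Phgdh, the first enzyme of serine synthesis, fell by 0.78 (5.45 ± 0.25 in D2, SD, n = 12, and 6.23 ± 0.19 in B6, SD, n = 10), Atf4 itself by 0.61, the mitochondrial folate enzyme gene Mthfd2 by 0.42 and the asparagine synthetase gene Asns by 0.41. The strains did not overlap for Phgdh. The number called in this list ran from 0 on the letter B arrays alone to 6 over 11 alternatives. With the array median as covariate Phgdh alone of the list was called, and 3.09% of all genes were. A glutathione list had 7 measured genes, Gclc, Gclm, Gss, Chac1, Nfe2l2, Keap1 and Gpx4, not all of them synthesis enzymes. Gclm, a subunit of the rate-limiting ligase, fell by 0.46, and the median of the 7 was -0.25. None of the 7 was called with the covariate. Chac1 stands in both lists.

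Of 9 measured genes of glutamate and glutamine metabolism 3 fell and none rose. In the fit as reported, the background for this and the following lists was 8.26% of all genes called lower and 2.57% called higher. Glul, the glutamine synthetase of astrocytes, fell by 0.43 (9.75 ± 0.16 in D2, SD, n = 12, and 10.18 ± 0.092 in B6, SD, n = 10), the alanine aminotransferase gene Gpt2 by 0.35 and the aspartate aminotransferase gene Got1 by 0.23. With the array median as covariate none of the 9 was called, and 3.09% of all genes were. Of 22 other amino acid transporters 3 fell: Slc16a10, a carrier of aromatic amino acids, by 0.46, the proline carrier gene Slc6a20a by 0.32 and the lysosomal cationic carrier gene Slc66a1 by 0.30. With the array median as covariate Slc16a10 was the 1 gene of these 22 called; with arrays centred it was called lower, Slc6a6 and Slc6a18 were called higher, and the median was 0.03. None of the 4 measured carriers of GABA and taurine and none of 21 genes of amino acid sensing by mTORC1 was called. At an unadjusted p under 0.05, 1 of the 4 was lower and 1 higher, and 2 of the 21 were lower. With the mean over probesets 2 of the 4 (Slc6a12 and Slc6a13) and 4 of the 21 (Mlst8, Lamtor1, Flcn and Tsc2) were called lower, and with the 75th percentile filter 1 and 3 were. More of all genes were called lower there too, 1932 of 16016 with the mean and 1232 of 12334 with that filter. With arrays centred Slc6a6 was called higher, as were 1023 of all 16016 genes, while 756 were called lower. Of the 21 sensing genes 20 lay below 0, with a median of -0.10, against 61.9% and a median of -0.05 for all genes. The median of the sensing genes was -0.005 with arrays centred and 0.06 with the array median as covariate.

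**Figure D4:**
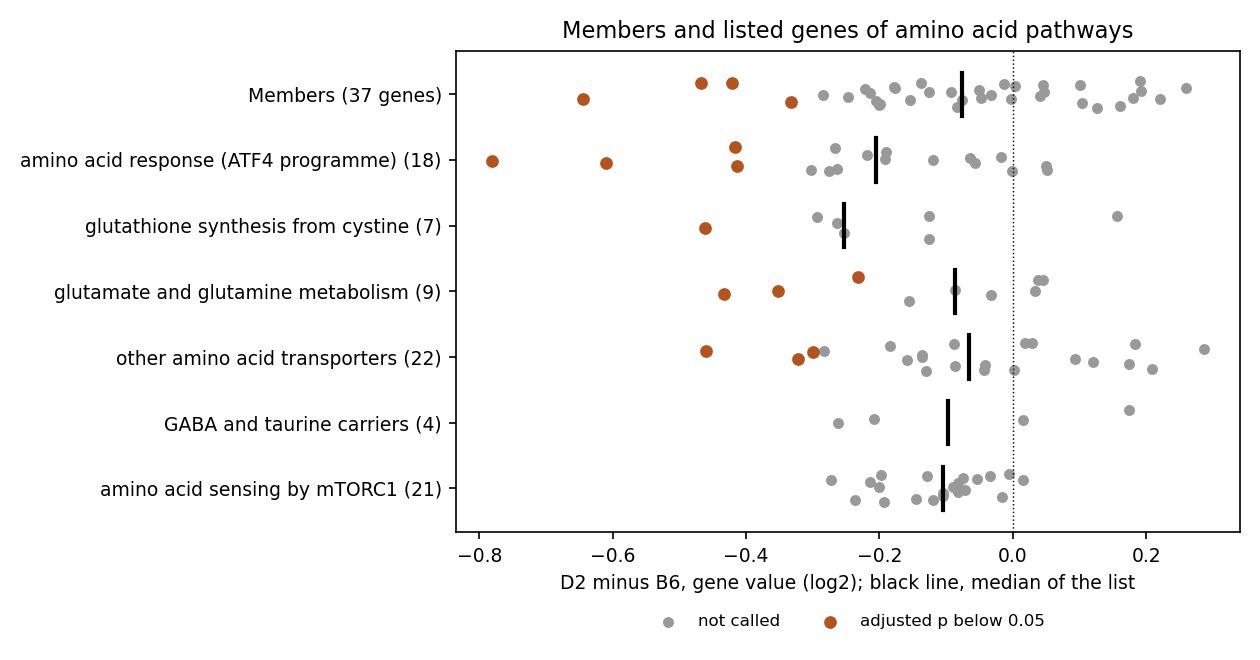
Difference in gene value, D2 minus B6 (horizontal axis, log2), of the measured members (top) and of the measured genes of 6 related lists; each point is a gene, orange where called, and black lines are medians. The median of the members is -0.08, that of the ATF4 list -0.21 and that of the mTORC1 list -0.10.

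Markers of brain cell types were read from 7 lists. Of all genes tested 8.26% were called lower and 2.57% higher in D2, and 61.9% lay below 0. Of 8 astrocyte markers 4 fell (Gfap, Aldh1l1, Gjb6 and Aldoc) and Gja1 rose, and their mean level lay between 6.17 and 6.56 in D2 and between 6.45 and 6.77 in B6. Of 6 endothelial markers Pecam1 and Slco1a4 fell and all 6 lay below 0, with mean levels of 4.46 to 4.94 in D2 and 4.80 to 5.18 in B6. Of 6 markers of choroid plexus and ependyma 3 fell (4.75 to 5.18 in D2 and 5.18 to 5.57 in B6), of 6 of oligodendrocytes 2 fell (7.38 to 8.04 in D2 and 7.82 to 8.09 in B6), of 7 of microglia 1 fell (4.35 to 4.85 in D2 and 4.46 to 5.02 in B6) and of 5 of neurons 1 fell (8.14 to 8.81 in D2 and 8.41 to 8.97 in B6). Of 3 markers of red blood cells the globin gene Hbb-b1 fell by 4.12 and the heme synthesis gene Alas2 by 0.90, while Slc4a1 differed by 0.01. Their mean level, which Hbb-b1 moved most, lay between 3.24 and 4.67 in D2 and between 5.21 and 5.78 in B6. Without the probesets that had a called exon usage difference, 2 of the 3 were measured and Alas2 alone was called. Whether D2 variants lie under the probesets of Hbb-b1 was not tested. With the array median as covariate no astrocyte, endothelial, microglia or neuron marker was called, and Mobp of the oligodendrocyte list, Folr1 of the choroid plexus list and Hbb-b1 were called lower. With arrays centred on their median gene value Gfap and Aldh1l1 were the 2 astrocyte markers called lower, and Gja1 was called higher. Of all genes 3.09% were called with the covariate and 11.1% with arrays centred. A measured gene had to pass the filter on low values, so these values cannot show that a marker was absent. The part of these markers in the differences of Slc3a2, Slc7a2, Slc7a3, Slc38a11 and Slc1a2 was not tested.

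The 4 called members lay below 0 under all 12 alternatives tried. With arrays of letter A alone the differences of Slc38a11, Slc7a3, Slc7a2 and Slc3a2 were -0.65, -0.45, -0.46 and -0.26, each still called, and with the 2 D2 and 2 B6 arrays of letter B alone they were -0.62, -0.54, -0.29 and -0.63, none called by limma (0 of 37 members, of which 3 had an unadjusted p under 0.05, and 0.468% of all genes).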

How the data were processed

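Whole-brain RNA of 12 D2 and 10 B6 mice was measured, 1 array per mouse. Per the labels, TRIzol extracts were cleaned on RNeasy columns and freed of ribosomal RNA before biotin labelling, and 2 further arrays read on another scanner were left out by the authors. The authors deposited log2 values which the submitters' processing notes credit to RMA in affy 1.12.2 under R 2.6.0. RMA equalises the distributions of the arrays and fits 1 value per probeset. The RMA options, probeset definition and genome build are not given in the sources used here. Of 1201338 probesets 10932 held no value on any array and were dropped. The platform annotation gave 1 symbol to 311384 probesets, several to 6385 and none to 883569, and genes were named only from probesets with 1 symbol, as the platform spells it. Arrays have no read depth, and their number limits the precision.

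Differences are D2 minus B6 from limma 3.58.1 in R 4.3.3 (lmFit and eBayes, two-sided, Benjamini-Hochberg over the whole table), fitted on all 16016 genes, 236114 index values and 595203 kept probesets, with only the members and listed genes printed. The members, lists and tests were chosen with earlier results of these data known, so no pattern here is independent support for one seen before. Values by array are given for members called at gene level or with a called exon usage difference, and for the member of each family with the highest probeset level. Other members are given by difference, family and count, and at most 4 called genes per list. Probesets called on their own level were added after their values were seen. Promoter sequences are from RefSeq (GRCm38.p6) by symbol, and a window was found for 29 of the 40 members. Figures were drawn with matplotlib 3.10.9.

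The fitting functions were tested on simulated data with known changes. At gene level 12% of changes of 0.25 and 64% of changes of 0.5 were called. At probeset level 6% of changes of 0.5 were called. Few changes were planted: 145 genes and 78 probesets were called in the simulation, against 1735 and 23265 in the data. An adjusted p under 0.05 was therefore harder to reach there, and these shares may be too low for the data. A gene or probeset without a call can therefore still differ by such amounts.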

Additional observations from a re-analysis of the deposited data

Results flagged for a closer look

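For 4 measures a single B6 array stood apart from the other 9 B6 arrays, by a gap to the nearest array that was large against the range of the group (Dixon's 95% criterion). The criterion was applied to the B6 arrays for 47 measures (37 gene values and 10 probeset levels), of which chance marks about 1 in 20, and groups of more than 10 arrays, such as D2, were not tested. For the Slc36a4 gene value it was replicate 11 at 6.20, with the others between 6.68 and 7.09. For the Slc7a4 gene value it was replicate 11 at 5.70 (others 5.94 to 6.18). For the Slc7a14 gene value it was replicate 6 at 6.03 (others 6.56 to 7.03). For probeset 5046369 of Slc3a2 it was replicate 6 at 8.38, above the others (7.71 to 8.00), and the D2 arrays all lay lower, at most at 7.01.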

How the results depend on the processing

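The count of 4 called members was 1 with the array median as covariate, 0 on the letter B arrays alone and 10 with the mean over probesets, which added Slc1a2, Slc1a6, Slc38a5, Slc38a9, Slc7a11 and Slc7a8, all lower in D2. It ran from 3 to 6 under the other alternatives. Of all genes 3.09% were called with the covariate, 0.468% on the letter B arrays and 17% with the mean, against 10.8% as reported. Under the other alternatives 7.57% to 13.3% of all genes were called. With arrays centred on their median gene value 4 were lower and 2 higher (Slc36a1 and Slc38a3), and the median difference over all genes was 0.05, against -0.05 as reported. The 10 exon usage calls became 0 in limma on the letter B arrays alone, where 45 probesets differed by at least 0.5 with an unadjusted p under 0.05, and 8 to 15 otherwise. The 31 called probeset levels (27 lower, 4 higher) became 9 with the covariate, 47 with the file letter as block, 1 on the letter B arrays alone and 33 (19 lower, 14 higher) with arrays centred, and 23 to 39 otherwise. The share called of all kept probesets with 1 symbol was 4.06% as reported. In the settings named it was 1.73%, 4.81%, 0.0617% and 4.09%, in the same order. The cause was not tested, but the letter B fit rests on 4 arrays.

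The Slc38a1 gene value, at -0.013, turned to 0.042 with the 75th percentile filter, 0.0576 without a filter, 0.0856 with arrays centred, 0.0477 with the covariate, 0.0226 on the letter B arrays and 0.0194 without D2 replicates 13, 14 and 19. On the letter B arrays Slc36a4 turned to -0.054, Slc38a6 to -0.0832 and the index of Slc38a1 probeset 4514720 to 0.036. Slc38a3 turned to -0.30 and Slc38a4 to -0.23 on the same arrays. Slc36a4 also turned to -0.0183 with the mean over probesets, and with the covariate Slc38a9 turned to 0.20 and Slc7a11 to 0.0344. Slc3a2 without a filter was at -0.66. Grouping by updated gene symbols, chosen after seeing the data, moved Slc1a2 to -0.07 by joining a second symbol to it, and left 4 called members. No paired analysis was possible because the strains share no replicate numbers.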
